A study of Homo sapiens with 12 samples.

Results

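The basal expression profiles of SNU-5 and MKN45, a pair of gastric cancer cell lines in which the MET gene is amplified, were compared without drug. The comparison used the 3 arrays labelled SNU5_CONTROL and the 3 labelled MKN45_CONTROL, 6 of the 12 arrays in the series. The other 6 arrays carried RNA of the same lines after 1 uM crizotinib, a MET inhibitor, for 24 hours. The medium was RPMI-1640 for MKN45 and Iscove's modification of Dulbecco's medium for SNU-5, both with serum, vitamins, glutamine and antibiotics, so the cell line and its medium cannot be told apart in any difference below. Each line stands for 1 tumour. The sources do not say whether the 3 replicates of a line were separate cultures, and the p-values measure the spread between these arrays, which may be technical.

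MET is the receptor for hepatocyte growth factor. Its amplification leads to ligand-independent signalling through the MAPK and PI3K pathways, and lines with this lesion often depend on it. Normal stomach epithelium is built of columnar cells joined by E-cadherin and claudins, which secrete trefoil peptides and mucins. Gastric carcinomas keep part of that programme, take on intestinal features, or lose cell adhesion, and lines from different tumours differ in which of these they show.

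Biotin-labelled cRNA was hybridised to Illumina HumanHT-12 v4 bead arrays and every value below is a log2 signal after background correction and quantile normalization, unless another scale is named. A probe was called different at p under 0.001, adjusted p under 0.05 and at least 2-fold in limma. Signals below about 4.9 were at the level of the dimmest detected probes of each array (4.84 to 4.91 on the 6 arrays). Where no array of a line detected a gene's brightest probe, the fold is given as a lower bound against that level. Mean raw signals were 404 to 499 on the MKN45 arrays and 328 to 557 on the SNU-5 arrays, and 19259 to 20248 of 47323 probes were detected per array. SNU-5 replicate 1 was the brightest array and stood apart from the rest of its group. Its log2 signals correlated at 0.974 and 0.964 across probes with SNU-5 replicates 2 and 3, which correlated at 0.991 with each other, while MKN45 arrays correlated at 0.986 or above and arrays of different lines at 0.911 to 0.936. Without that array 3011 genes were called in place of 2939, and 1326 of the 1497 genes higher in SNU-5 and 1331 of the 1448 higher in MKN45 were among them.

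Of 11668 genes, 2939 had a called probe: 1497 were higher in SNU-5 and 1448 in MKN45, 6 of which had probes called in both directions. Taking each gene by its brightest probe, 1392 genes (11.9%) were higher in SNU-5 and 1360 (11.7%) in MKN45. These shares are the background for the gene lists below, in which a member is called by the same probe. The median size of the difference over all tested genes was 0.54 on the log2 scale and the median standard error 0.20. The arrays of the lines did not overlap for 3169 genes higher in SNU-5 and 3149 higher in MKN45. Lack of overlap, given for some genes below, was thus common among the 11668 genes. Fitted differences, which for many genes are set against a signal that was not detected and are then no measured size, passed 8-fold for 172 genes higher in SNU-5 and 212 higher in MKN45.

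**Figure D1:**
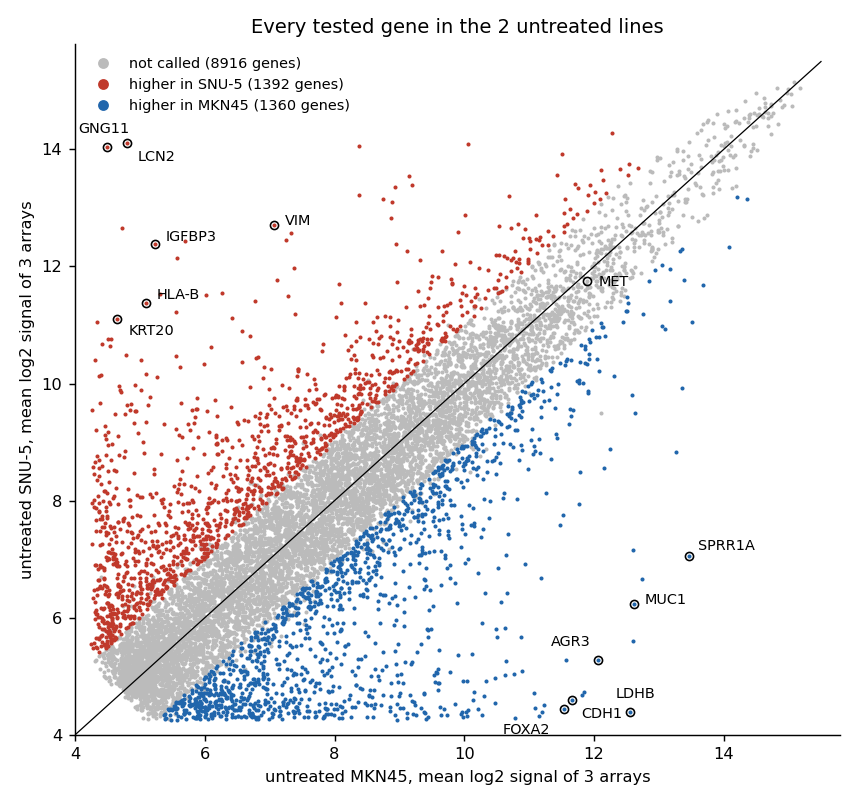
Mean log2 signal of the 3 untreated MKN45 arrays (x axis) and of the 3 untreated SNU-5 arrays (y axis) for each of 11668 tested genes, with the line of equal signal. Red points are the 1392 genes called higher in SNU-5, blue points the 1360 called higher in MKN45, and grey points genes not called. GNG11 and LCN2 lie at the upper left, LDHB at the lower right and MET near the line.

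The largest differences were of genes at or near background in one line. GNG11, a gamma subunit of heterotrimeric G proteins, had log2 signals of 14.02, 14.24 and 13.84 in SNU-5 and of 4.47, 4.60 and 4.39 in MKN45, where it was not detected. The fold was at least 576 (limma, adjusted p = 3.32e-13). LCN2, which encodes the iron-siderophore binding protein lipocalin 2, gave 14.33, 13.99 and 14.01 in SNU-5 against 4.79, 4.64 and 4.94 in MKN45, where only 1 array detected it. In the other direction LDHB, the heart-type subunit of lactate dehydrogenase, gave 12.79, 12.47 and 12.41 in MKN45 and 4.42, 4.31 and 4.41 in SNU-5, where no array detected it, and was at least 204-fold higher in MKN45 (adjusted p = 3.32e-13). The groups of arrays lay far apart for all 3 genes. LDHA, the muscle-type subunit of the same enzyme, had signals of 14.04, 13.98 and 14.22 in SNU-5 and 14.07, 13.60 and 13.51 in MKN45 and was not called (a log2 difference of 0.35 ± 0.17 (SE), adjusted p = 0.11).

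Among genes detected on all 6 arrays, the 12 furthest above MKN45 in SNU-5 were led by IGFBP3, a carrier of insulin-like growth factors (142-fold), CAVIN1, a coat protein of caveolae (107-fold), SGCE, epsilon-sarcoglycan (95.8-fold), HLA-B, a classical MHC class I heavy chain (78.6-fold), and IFI27, an interferon-induced protein of mitochondria (75.0-fold). IGFBP3 varied among the SNU-5 arrays, at 12.99, 11.49 and 12.65 and its MKN45 signals of 5.46, 5.20 and 5.02 lay far below all 3. The remaining 7 were STMN3, ST3GAL5, VIM, TIMP2, TM4SF4, MT1E and CAMK2N1, at 36.6- to 51.3-fold. The 12 furthest above SNU-5 in MKN45 were led by AGR3, a secretory-pathway disulphide isomerase family member (110-fold), SPRR1A, a cornified envelope precursor (85.4-fold), MUC1, a membrane mucin (84.1-fold), MPZL2, an epithelial adhesion protein (78.3-fold), and GPX2, the gastrointestinal glutathione peroxidase (67.3-fold). SPRR1A was steady in both lines, at 13.50, 13.57 and 13.34 in MKN45 and at 7.03, 7.18 and 6.95 in SNU-5. The remaining 7 were CRIP1, P3H2, LYZ, MSLN, LBH, MYO5C and UGT1A6, at 26.3- to 43.5-fold. LYZ, lysozyme, was the least even of them in SNU-5 (4.94, 5.42 and 6.67) and lay between 10.71 and 11.06 in MKN45. Several of these folds rest on signals close to the dimmest detected ones in the lower line, so their size is uncertain. Examples are AGR3 in SNU-5 (4.86, 5.62 and 5.35), HLA-B in MKN45 (5.04, 5.22 and 5.01) and UGT1A6 in SNU-5 (4.91, 5.22 and 5.09).

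The labelled cell type was checked against its markers. EPCAM, the epithelial cell adhesion molecule, was abundant in both lines, at 11.08, 11.53 and 11.50 in SNU-5 and 12.81, 12.28 and 12.50 in MKN45, and KRT8 and KRT19, keratins of simple epithelium, lay above 12 on all 6 arrays. None of the 8 endothelial markers passed the detection filter, PECAM1, CDH5 and VWF among them. Of 11 fibroblast markers on the array 3 were tested and 2 were higher in SNU-5. LUM, the matrix proteoglycan lumican, stood at 8.84, 10.46 and 10.35 there against 5.16, 4.91 and 4.98, and COL1A2, a chain of type I collagen, at 8.85, 7.84 and 7.12 against no detection (at least 8.40-fold). COL1A1, its partner chain, was not called (-0.01 on the log2 scale), and DCN, COL3A1, PDGFRA and PDGFRB did not pass the filter. Of 11 leukocyte markers 7 were tested, and PTPRC, CD3D and CD3E were not detected well enough to be. CD14, a co-receptor for lipopolysaccharide, was 41.8-fold higher in SNU-5 (10.77, 10.20 and 10.25 against 5.15, 4.78 and 5.14). ITGAM, an integrin chain of myeloid cells, was higher in SNU-5, and LYZ was higher in MKN45. Whether other cells contributed to these signals was not tested.

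Markers of epithelium were mostly higher in MKN45. Of 16 tested, 10 were higher in MKN45 and 1 in SNU-5, a share of 62.5% against 11.7% of all genes, with a list median of -1.84 against -0.01 over all tested genes (log2, SNU-5 minus MKN45). CDH1, E-cadherin, was at 12.13, 11.58 and 11.29 in MKN45 and at 4.88, 4.53 and 4.39 in SNU-5, where only replicate 1 detected it (adjusted p = 2.25e-11). CDH3, P-cadherin, and ST14, the membrane protease matriptase, were higher in MKN45 and detected on 1 SNU-5 array, and the matriptase inhibitor SPINT1 was at least 5.85-fold higher by its brightest probe, although another SPINT1 probe was detected on 1 SNU-5 array. ESRP1, which directs epithelial splicing, and GRHL2, a transcription factor of epithelial junction genes, were detected only in MKN45, at least 5.00- and 2.91-fold higher. The exception was CLDN4, 2.46-fold higher in SNU-5, whose call was lost without SNU-5 replicate 2, without MKN45 replicate 1 or 3 and with the deposited normalized values (0.77 on the log2 scale). Keratins themselves were divided: KRT7 was 7.82-fold higher in MKN45, KRT20 at least 75.4-fold higher in SNU-5 and KRT15 4.91-fold higher in SNU-5. KRT18 was not called, with 5.02 on SNU-5 replicate 1 and 8.92 and 9.33 on the other 2 arrays of that line.

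Mesenchymal genes did not move as one. Of 15 genes on the array 7 were tested, of which 4 were higher in SNU-5 and 2 in MKN45. VIM, the intermediate filament vimentin, was at 13.21, 12.44 and 12.47 in SNU-5 and 6.98, 7.19 and 7.03 in MKN45 (49.9-fold). AXL, a receptor tyrosine kinase detected on 1 MKN45 array, and TGFBI, a matrix protein induced by TGF-beta (24.3-fold), were higher in SNU-5, with no overlap between the lines. SNAI2, a repressor of E-cadherin, was higher in SNU-5 at low signal (6.06, 6.58 and 6.49 against 4.41, 4.79 and 5.21), a call lost with the deposited normalized values (0.96 on the log2 scale). TWIST1 and TWIST2, repressors of the same kind, were low and detected only in MKN45, and both calls were lost with the deposited normalized values (-0.94 and -0.57). That of TWIST2 was also lost without MKN45 replicate 1 (-0.97) or 2 (-0.999) or without SNU-5 replicate 1 (-0.995) or 3 (-0.99). ZEB1, ZEB2, SNAI1, CDH2 and FN1 did not pass the detection filter, so nothing is said of their level in either line.

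Genes of gastric differentiation were mostly higher in MKN45. Of 10 tested, 7 were higher in MKN45 (70.0%) and 1 in SNU-5, with a list median of -3.87. CLDN18, the claudin of stomach epithelium, was at 9.41, 9.67 and 9.87 in MKN45 and undetected in SNU-5 (at least 27.2-fold). TFF1, the trefoil peptide of surface mucous cells, was at 9.00, 9.43 and 9.31 in MKN45 and undetected in SNU-5 (at least 20.6-fold). CTSE, the protease cathepsin E, was at least 38.1-fold and VSIG1, a gastric adhesion protein, at least 20.7-fold higher in MKN45. SOX2, a transcription factor of the foregut, was at least 5.66-fold higher in MKN45, where it reached 7.53, 7.36 and 7.27. AGR2, needed for mucin folding, was abundant in both lines and 5.51-fold higher in MKN45. ANXA10, an annexin of gastric mucosa, was the 1 member higher in SNU-5 (11.33, 11.93 and 12.18 against 10.89, 10.44 and 10.62), and its call was lost without any of the MKN45 arrays or without SNU-5 replicate 2 or 3. GKN1, GKN2, the pepsinogen PGC and the proton pump subunits ATP4A and ATP4B did not pass the filter.

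Intestinal genes went both ways, with 5 of 14 higher in SNU-5 and 6 in MKN45. KRT20, the keratin of differentiated enterocytes, was at 10.87, 11.40 and 11.03 in SNU-5 and undetected in MKN45. CDH17, liver-intestine cadherin, was at 12.18, 12.59 and 12.04 in SNU-5 and 9.16, 9.14 and 9.07 in MKN45 (8.84-fold), and GPA33, an intestinal surface antigen, was 8.90-fold higher in SNU-5. MKN45 had TFF3, the trefoil peptide of goblet cells, at 11.70, 11.82 and 11.93, against 5.00, 4.49 and 4.56 in SNU-5, where 1 array detected it. It also had REG4, a secreted lectin of enteroendocrine and goblet cells, at 11.17, 10.65 and 11.78 (at least 79.6-fold), and CEACAM5, the carcinoembryonic antigen, at 12.24, 11.63 and 11.66 against 4.94, 4.46 and 4.77, detected on 1 SNU-5 array. CDX2, the main intestinal transcription factor, was not called (8.32, 8.02 and 7.69 in SNU-5, 7.54, 7.32 and 7.38 in MKN45, a difference of 0.59 ± 0.19 with no overlap).

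**Figure D2:**
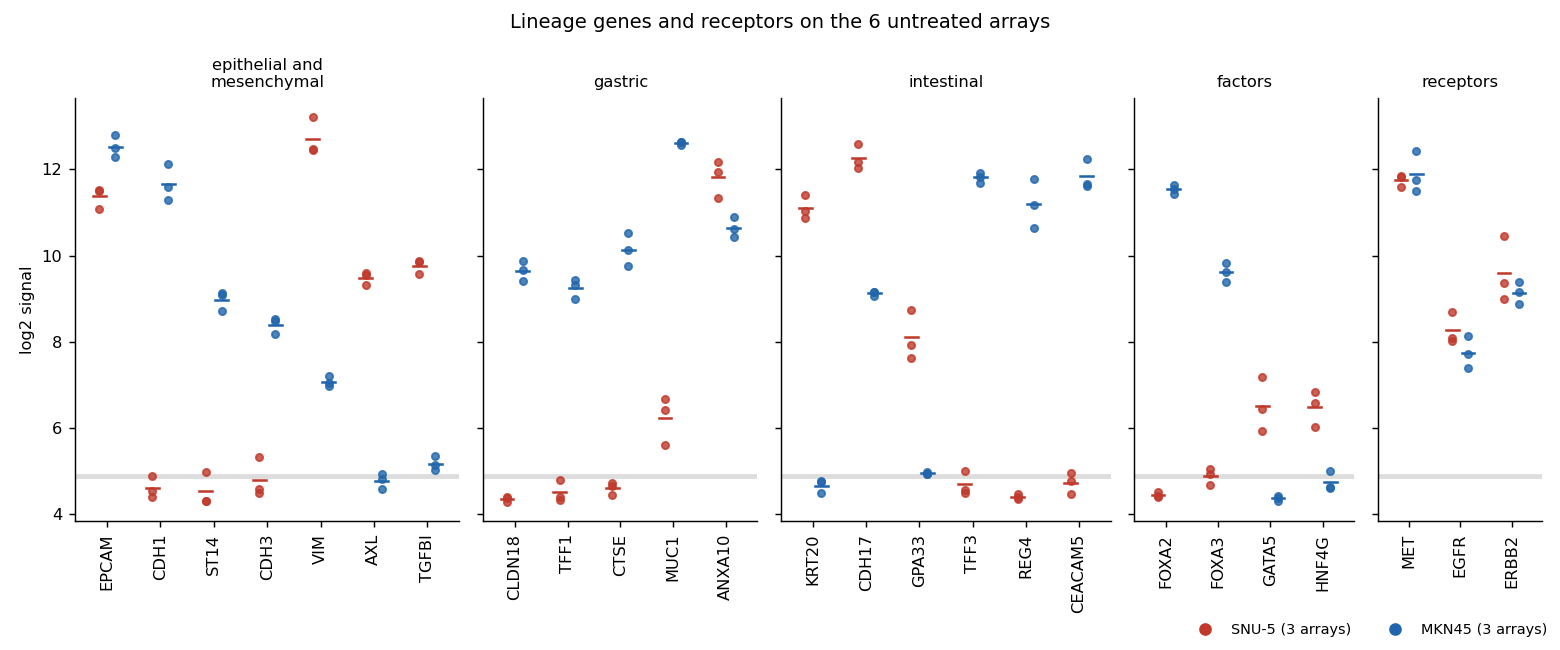
Log2 signal (y axis) of lineage genes and 3 receptors on each of the 3 SNU-5 arrays (red points) and 3 MKN45 arrays (blue points), with the group mean as a short bar. The grey band spans the dimmest detected signals, 4.84 to 4.91. CLDN18, REG4 and FOXA2 lie below the band in SNU-5 and KRT20 in MKN45, while the MET arrays of both lines overlap.

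Of 16 tested transcription factors of endoderm 3 were higher in SNU-5 and 4 in MKN45. FOXA2, a pioneer factor of foregut endoderm, was the most divided, at 11.54, 11.63 and 11.43 in MKN45 and 4.40, 4.41 and 4.52 in SNU-5, where it was undetected (at least 100-fold). FOXA3 was 26.4-fold higher in MKN45, while FOXA1 was not called (0.79 ± 0.29). GATA5 was detected only in SNU-5 (7.18, 6.43 and 5.93, at least 3.14-fold) and HNF4G was higher in SNU-5 too, with detection on 1 MKN45 array. SOX9, an epithelial progenitor factor, was at 9.98, 9.26 and 9.24 in SNU-5 and 9.82, 9.09 and 9.20 in MKN45 and was not called. HOX genes, which specify position along the body axis, were called in both directions. HOXB2, HOXB3, HOXB4, HOXB8 and HOXB13 were higher in SNU-5, by 2.82-fold for HOXB2 to 5.24-fold for HOXB8, and HOXC4, HOXC9, HOXC10 and HOXD1 were higher in MKN45. HOXC13 was higher in SNU-5. In all, 6 of 20 tested HOX genes were higher in SNU-5 and 4 in MKN45, and the count of 6 became 3 when the 6 untreated arrays were fitted alone, since HOXB3, HOXB13 and HOXC13 were then not called. The HOXC9 call was lost in that fit as well, without SNU-5 replicate 1 (-0.97) and with the deposited normalized values (-0.87), that of HOXB13 without any of the MKN45 arrays and that of HOXC13 without SNU-5 replicate 1 or MKN45 replicate 3. With the deposited normalized values HOXB13 (1.17) and HOXC13 (0.90) were not called either.

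Of 24 cell junction genes tested, 12 were higher in MKN45 and 4 in SNU-5, with a median of -1.10. CLDN3 was 6.01-fold, CLDN2 6.65-fold and CLDN7 2.66-fold higher in MKN45, as were the desmosomal proteins PKP2 and DSG2 (4.41-fold). MARVELD3, a tight junction protein, was detected only in MKN45 (7.85, 7.87 and 7.78, at least 7.72-fold). RAB25 and MYO5C, which sort membrane to the apical face of epithelial cells, were also far higher in MKN45, RAB25 by at least 76.7-fold. Matrix genes were split. COL4A1, a basement membrane collagen, was detected only in MKN45 (at least 28.1-fold), LAMB3, a chain of laminin 332, was higher in MKN45 and detected on 1 SNU-5 array, and the heparan sulphate proteoglycan GPC4 was at least 42.1-fold higher in MKN45. COL6A1 (12.8-fold), LAMB2 (5.56-fold) and SDC1, syndecan 1 (4.46-fold), were higher in SNU-5.

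MET itself was not called. Its signals were 11.83, 11.84 and 11.60 in SNU-5 and 12.44, 11.76 and 11.50 in MKN45, with overlapping arrays and a difference of -0.14 ± 0.21 (adjusted p = 0.63). The spread between MKN45 arrays was wider than the distance between the means. EGFR (0.52 ± 0.23) and ERBB2 (0.47 ± 0.30) overlapped as well and were not called, nor was ERBB3 (-0.96 ± 0.15, without overlap), which was called without MKN45 replicate 1 or SNU-5 replicate 2 or 3. Of 18 receptor tyrosine kinases tested, 4 were called higher in each line. AXL and MERTK (5.52-fold) and TYRO3 (2.89-fold), the 3 receptors of the TAM family, were all higher in SNU-5, together with EPHA2 (3.42-fold). MKN45 had more MST1R, the MET-related receptor RON (3.65-fold), and EPHA1, which was undetected in SNU-5. The TYRO3 and EPHA2 calls were lost in several settings, and of the 4 calls higher in MKN45 2 were left without background correction. TYRO3 stood at 8.49, 7.69 and 6.81 in SNU-5 and its call was lost without SNU-5 replicate 1 (1.12) or 2 (1.52) or without MKN45 replicate 1 (1.47) or 3 (1.39). EPHA2 stood at 11.09, 9.35 and 8.89 and its call was lost without MKN45 replicate 1 (1.82), 2 (1.82) or 3 (1.69).

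Ligands were more often higher in MKN45, 9 of 19 tested against 3 in SNU-5. The count of 9 was 5 without background correction. BMP7 and BMP4, bone morphogenetic proteins, were 22.8-fold and at least 10.4-fold higher in MKN45, and FGFBP1, which releases fibroblast growth factors from matrix, was 9.34-fold higher. WNT7B (10.9-fold), PDGFA (6.95-fold) and EREG, an EGF receptor ligand (4.25-fold), were higher in SNU-5. HGF, the MET ligand, and EGF did not pass the detection filter. Genes that report or restrain MAPK signalling were more often higher in SNU-5, 7 of 19 tested against 2. DUSP5, a phosphatase of nuclear ERK, was at 11.31, 11.12 and 10.92 in SNU-5 and 6.19, 6.54 and 6.51 in MKN45 (26.0-fold). SPRY4 (5.05-fold), EGR1 (3.49-fold) and DUSP6 (2.41-fold) were higher in SNU-5 with no overlap, while SPRY2 was not called (-0.07 ± 0.19). IER3, an early response gene, was 10.8-fold and CCND1, cyclin D1, 2.43-fold higher in MKN45.

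Of 6 tested neighbours of MET on chromosome 7, CAV1, caveolin 1, was 2.16-fold higher in SNU-5, a call lost without MKN45 replicate 2, and ST7 was 3.35-fold higher in MKN45. CAV2 (0.52 ± 0.28), CAPZA2 (-0.69 ± 0.30) and TES (-1.42 ± 0.38) were not called, and TES was called without SNU-5 replicate 3 (-1.73). On the short arm of chromosome 9, by contrast, KLHL9, MTAP, CDKN2A, CDKN2B-AS1 and CDKN2B, which are consecutive among the tested genes, were all called higher in SNU-5. MTAP, the methionine salvage enzyme, was at 8.80, 8.82 and 8.70 in SNU-5 and undetected in MKN45 (4.80, 4.64 and 4.58). KLHL9 was at least 11.2-fold higher. CDKN2A, which encodes the CDK4 and CDK6 inhibitor p16 and the MDM2 inhibitor ARF, gave 7.39, 7.47 and 7.80 in SNU-5 and 4.41, 4.66 and 4.73 in MKN45, where it was undetected (at least 6.43-fold), and CDKN2B, the inhibitor p15, was at least 4.76-fold higher by its brightest probe, with another CDKN2B probe detected on 1 MKN45 array. MLLT3 and FOCAD on one side and PLAA on the other were measured in both lines with differences of 0.23, 0.09 and 0.27 and were not called. TUSC1, next to CDKN2B in this order, was undetected in SNU-5 and at least 3.58-fold higher in MKN45, a gene named after its value was seen.

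**Figure D3:**
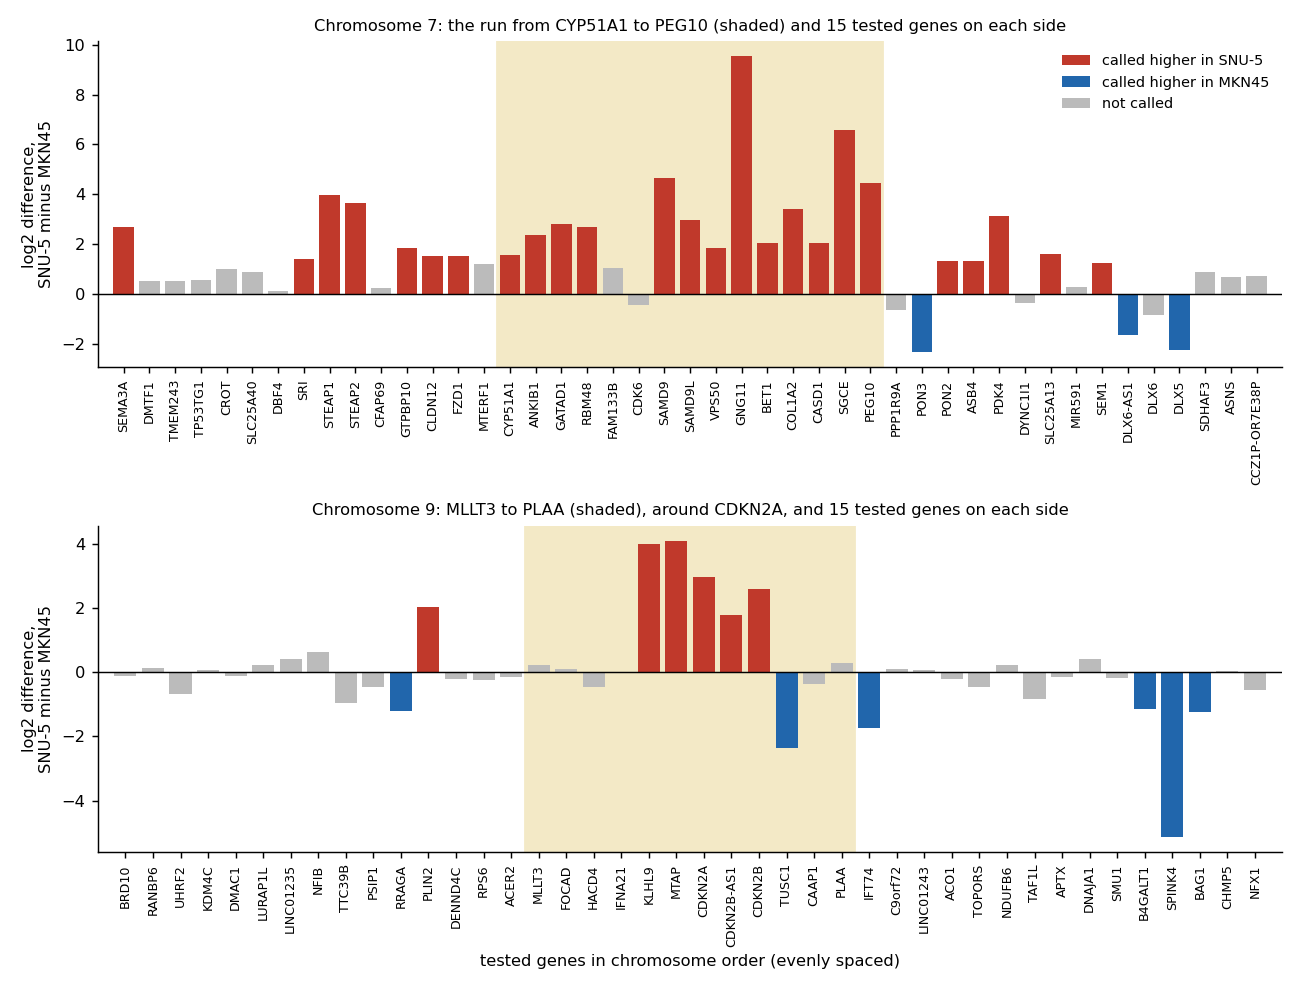
Log2 difference, SNU-5 minus MKN45 (y axis), of tested genes in chromosome order and evenly spaced (x axis), on chromosome 7 (top) and chromosome 9 (bottom). Red and blue bars are genes called higher in SNU-5 and MKN45, grey bars genes not called. The run from CYP51A1 to PEG10 holds 13 called genes of 15, all higher in SNU-5, and on chromosome 9 the 5 genes from KLHL9 to CDKN2B stand above their neighbours, while TUSC1 beside them was higher in MKN45.

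Targets of p53, most of which restrain growth, were higher in MKN45 for 9 of 27 tested and higher in SNU-5 for 1, with a median of -0.58. CYFIP2, PHLDA3 and PLK2 were detected only in MKN45, at least 18.0-, 5.72- and 3.58-fold higher. MDM2, the ubiquitin ligase of p53, was also detected only in MKN45 (6.25, 5.79 and 6.03, at least 2.20-fold), and TIGAR, a fructose bisphosphatase, was 3.50-fold and BAX, a pro-apoptotic BCL2 family member, 2.11-fold higher in MKN45. The BAX call was lost without SNU-5 replicate 1 (-0.83) or any of the MKN45 arrays (-0.93 to -1.16) and when the 6 untreated arrays were fitted alone. With the deposited normalized values the calls of BAX (-0.97) and MDM2 (-0.73) were lost. CDKN1A, the CDK inhibitor p21, stood at 10.86, 11.47 and 11.76 in MKN45 and 10.20, 10.70 and 10.19 in SNU-5 and was not called, the difference falling just short of 2-fold. It was called without MKN45 replicate 1 (-1.25) or SNU-5 replicate 2 (-1.16). The count of 9 was 5 without background correction. Among cyclins, CCND2, cyclin D2, gave 9.39, 8.99 and 8.98 in MKN45 and no detection in SNU-5 by its brightest probe (at least 18.8-fold), although another probe was detected on 1 SNU-5 array, and CCNE1, cyclin E1, was 2.46-fold higher in MKN45. CCND3 and CDK4 were not called. Of 33 DNA replication genes only MCM7 was called (2.01-fold higher in SNU-5, a call lost without MKN45 replicate 1 or 2). Without SNU-5 replicate 1 the list had 2 genes higher in SNU-5 and 3 in MKN45, and without SNU-5 replicate 2 it had 2 higher in SNU-5. Of 30 mitotic genes none was called higher in SNU-5 and 6 in MKN45, among them CENPF, a kinetochore protein (4.49-fold), and AURKB, the chromosomal passenger kinase (2.58-fold). The list median was -0.60.

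Antigen presentation and interferon-stimulated genes were mostly higher in SNU-5. Of 18 class I genes 11 were higher in SNU-5 and 0 in MKN45, 61.1% against 11.9% of all genes. The count was 7 without MKN45 replicate 1. It was also 7 by the random variance t-test, which was run on values without background correction. HLA-B gave 11.72, 11.20 and 11.23 in SNU-5 and 5.04, 5.22 and 5.01 in MKN45. HLA-C and HLA-E were 2.38- and 2.12-fold higher, calls lost without MKN45 replicate 1 (0.99 and 0.89). The HLA-C call was also lost with the deposited normalized values (0.98). That of HLA-E was also lost without SNU-5 replicate 1 (0.94) and when the 6 untreated arrays were fitted alone. B2M, the light chain of these molecules, was abundant in both lines and not called (0.95 ± 0.22), although it was called without SNU-5 replicate 1 (1.20). HLA genes are polymorphic and alike, and whether the HLA probes bind the alleles of both lines equally was not tested. PSMB9 and PSMB8, subunits of the immunoproteasome, were at least 18.3-fold and 7.03-fold higher in SNU-5, and TAP1 and TAP2, the peptide transporter, 4.91-fold and 2.60-fold. The PSMB9 bound is that of its brightest probe, and another PSMB9 probe was detected on all 3 MKN45 arrays. In the class II list 7 of 8 tested genes were higher in SNU-5. CD74, the invariant chain, gave 9.55, 8.99 and 8.82 against no detection in MKN45 (at least 19.1-fold), HLA-DPA1 was at least 13.9-fold and HLA-DRA 9.18-fold higher. HLA-DRB4 was 11.1-fold higher by its brightest probe, while its other tested probe was not called (0.16). CIITA, the class II transactivator, did not pass the filter.

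Of 39 interferon-stimulated genes tested, 25 (64.1%) were higher in SNU-5 and 1 in MKN45, with a median of 1.51. IFI27 gave 11.54, 11.45 and 11.61 in SNU-5 and 4.89, 5.53 and 5.50 in MKN45. BST2, which tethers virions at the cell surface, was 7.48-fold and MX1, an antiviral GTPase, 5.29-fold higher, and IFI44 was higher with detection on 2 MKN45 arrays. IRF7, an interferon regulatory factor, was detected only in SNU-5 (7.65, 7.46 and 7.57, at least 6.48-fold), as was SAMD9, a restriction factor of poxviruses (8.31, 9.46 and 9.73, at least 19.7-fold). IFITM2 and IFITM3, inhibitors of viral entry, were abundant in both lines and 5.69- and 3.82-fold higher in SNU-5. Members of the same list that were not called included IFITM1 (0.03 ± 0.32), OAS1 (-0.77 ± 0.18) and IFI44L (0.08). The 1 member higher in MKN45 was IFIH1, the RNA sensor MDA5 (2.04-fold). Its call was lost without MKN45 replicate 1 or SNU-5 replicate 3 and with the deposited normalized values (-0.74). SNU-5 replicate 1 was not the highest array throughout, being the lowest of its line for SAMD9 and UBE2L6 and the highest for MX1.

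Many genes of this response carry a short element near their start, to which interferon-activated factors bind. Its letters are shown here for 3 list members higher in SNU-5 and for the 1 member higher in MKN45. The stretches are the 150 bases before the RefSeq start (GRCh38.p14), 5′ to 3′ on the gene's strand, and capitals mark matches to TTTC, any 2 bases and TTTC, or to its reverse complement, GAAA, any 2 bases and GAAA, searched on both strands.
IFI27, chr14:94110586-94110735, + strand: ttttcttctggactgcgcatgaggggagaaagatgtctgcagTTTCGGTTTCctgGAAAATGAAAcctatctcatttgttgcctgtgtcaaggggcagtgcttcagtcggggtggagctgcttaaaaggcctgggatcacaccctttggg
IFIT1, chr10:89392473-89392622, + strand: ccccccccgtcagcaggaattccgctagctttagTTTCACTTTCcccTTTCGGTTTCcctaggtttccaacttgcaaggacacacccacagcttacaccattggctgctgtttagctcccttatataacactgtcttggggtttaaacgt
SAMD9, chr7:93117980-93118129, - strand: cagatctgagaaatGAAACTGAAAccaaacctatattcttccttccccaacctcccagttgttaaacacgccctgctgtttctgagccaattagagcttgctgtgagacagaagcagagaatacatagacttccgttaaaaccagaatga
IFIH1, chr2:162318685-162318834, - strand: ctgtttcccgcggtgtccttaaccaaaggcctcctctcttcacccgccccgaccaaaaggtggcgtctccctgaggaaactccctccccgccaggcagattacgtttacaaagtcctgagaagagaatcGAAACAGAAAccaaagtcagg
In the full promoter windows, from 250 bases before to 50 after the start, 21 of the 31 tested list members with a promoter in the table held the letters (67.7%), against 3.65% of all 27305 promoters. The share was 13 of 18 among members called higher in SNU-5 and 7 of 12 among members not called, so members of both kinds held these letters, as did IFIH1. Over all tested genes, 3.63% of those higher in SNU-5, 2.22% of those higher in MKN45 and 2.92% of those not called held a match. The motif was chosen after the values had been seen, and a match is a description of letters and not a measured binding site.

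Chemokines and NF-kappaB targets were mostly higher in SNU-5, 10 of 16 tested against 2 in MKN45. Besides LCN2, CXCL5, a neutrophil chemokine, was detected only in SNU-5 (10.59, 10.56 and 10.87, at least 56.0-fold), CCL5 was 12.0-fold and CXCL1 5.16-fold higher. NFKBIA and TNFAIP3, inhibitors that NF-kappaB itself induces, were not called (0.47 and 0.62). PTGS2, cyclooxygenase 2, was at least 22.6-fold higher in MKN45 (9.54, 9.29 and 9.32) by its brightest probe, with another probe detected on 1 SNU-5 array, while PTGES, the prostaglandin E synthase that acts after it, was detected only in SNU-5 (11.19, 10.62 and 10.50, at least 59.8-fold). Of 20 complement and coagulation genes 9 were higher in SNU-5 and 2 in MKN45. SERPINE2, a thrombin inhibitor (24.9-fold), PROCR, the protein C receptor (20.2-fold), SERPINA3, an acute phase antiprotease detected on 1 MKN45 array, and the complement factor CFB (8.25-fold) were higher in SNU-5, and F3, tissue factor (12.3-fold), and PLAU, urokinase (6.48-fold), in MKN45.

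**Figure D4:**
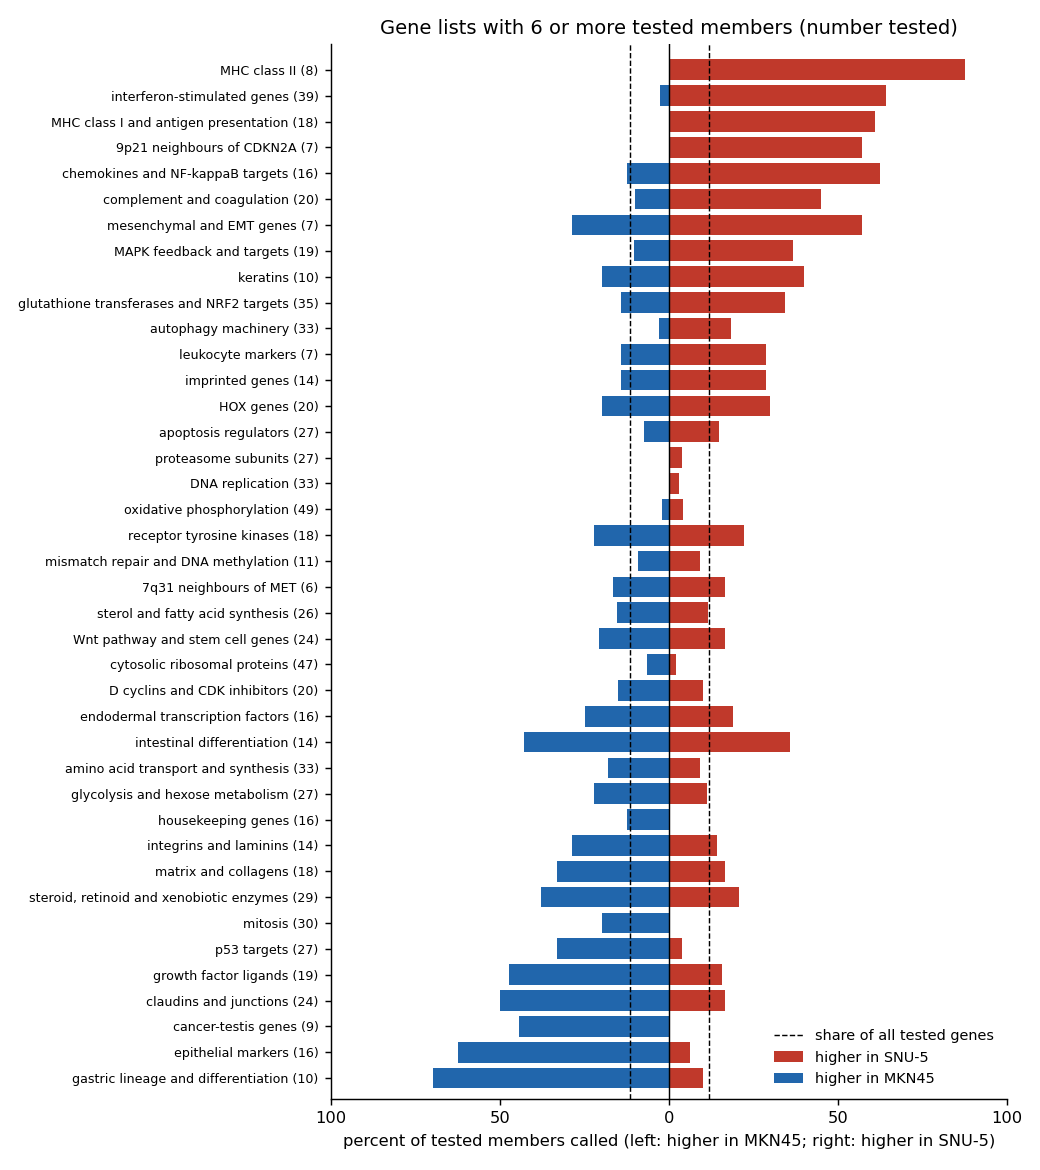
Percent of tested members called higher in SNU-5 (red, to the right) and higher in MKN45 (blue, to the left) in each gene list with 6 or more tested members, whose number stands after the name. Dashed lines mark the shares over all tested genes, 11.9% and 11.7%. The MHC class II list extends furthest to the right (87.5%) and the gastric list furthest to the left (70.0%).

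Detoxification enzymes of the same family were called in both directions. Of 35 glutathione transferases and NRF2 targets 12 were higher in SNU-5 and 5 in MKN45. GSTM2, a mu-class transferase, was 12.9-fold, the plasma peroxidase GPX3 at least 10.1-fold, the efflux pump ABCC2 at least 9.58-fold and TXNRD1, thioredoxin reductase, 5.19-fold higher in SNU-5. GPX2, at 12.86, 12.74 and 12.62, GSTO2 (9.43-fold) and GSTP1 (3.34-fold) were higher in MKN45. NQO1, a common readout of NRF2, was abundant in both lines and not called (0.59 ± 0.17). Of 29 enzymes of steroid, retinoid and xenobiotic metabolism 6 were higher in SNU-5 and 11 in MKN45. The retinaldehyde dehydrogenases were divided between the lines, ALDH1A2 at 11.01, 10.79 and 10.50 in MKN45 and lower in SNU-5 by 5.73 on the log2 scale and ALDH1A1 and ALDH1A3 higher in SNU-5 (6.91- and 4.69-fold). The aldo-keto reductases were divided as well, AKR1B10 only in MKN45 (at least 14.6-fold) and AKR1C2 11.8-fold higher in SNU-5, with AKR1C3 not called (-0.17 ± 0.15). UGT1A1 and UGT1A6 (26.3-fold), glucuronosyltransferases that share exons of 1 locus, were higher in MKN45, UGT1A1 with detection on 1 SNU-5 array, and their probes may measure the same transcripts.

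Of 27 glycolytic and hexose genes 3 were higher in SNU-5 and 6 in MKN45, and the count of 3 was 5 without SNU-5 replicate 2. FBP1, the gluconeogenic fructose bisphosphatase, was at 10.72, 10.53 and 11.03 in SNU-5 and undetected in MKN45 (at least 59.4-fold). HK2, hexokinase 2 (2.84-fold), PFKFB2 (5.05-fold) and PDK3, a pyruvate dehydrogenase kinase (15.7-fold), were higher in MKN45, and GAPDH, PGK1 and PKM were not called. PHGDH, the entry enzyme of serine synthesis, was at 11.24, 11.90 and 11.42 in MKN45 and 7.82, 7.71 and 7.74 in SNU-5 (13.6-fold). SLC7A5 and SLC3A2, the 2 chains of the large neutral amino acid transporter, were 6.46- and 4.88-fold higher in SNU-5. FADS1, a fatty acid desaturase, was detected only in MKN45 (at least 12.5-fold). Among 33 autophagy genes 6 (18.2%) were higher in SNU-5 and 1 (3.0%) in MKN45, against 11.9% and 11.7% of all genes. They were MAP1LC3A, MAP1LC3B, SQSTM1, ATG16L1, WIPI1 and ATG5 against ATG4A. The WIPI1 and ATG5 calls were lost with the deposited normalized values (0.63 and 0.77), and that of WIPI1 also without SNU-5 replicate 1 (0.90) or MKN45 replicate 1 (0.99) and when the 6 untreated arrays were fitted alone. SQSTM1, the receptor p62, was at 14.43, 14.36 and 14.02 in SNU-5 and 12.20, 12.18 and 12.45 in MKN45 (3.99-fold), and MAP1LC3B, which coats autophagosomes, was 3.72-fold higher, while BECN1, which starts autophagosome formation, was not called (-0.84 ± 0.16). Few genes were called in the oxidative phosphorylation, proteasome and ribosomal protein lists, 3 of 49, 1 of 27 and 4 of 47. Without SNU-5 replicate 3 the proteasome list had 2 genes higher in SNU-5 and 3 in MKN45. UQCRC2, a core protein of respiratory complex III, was 3.88-fold higher in SNU-5.

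Genes detected on all 3 arrays of one line and on none of the other were counted next. There were 342 in SNU-5, 233 of them called, and 487 in MKN45, 322 of them called. The selection itself fixed the direction of these calls, so their number describes the selected genes and is no separate result. Most bounds were small, with medians of 2.14 and 2.09, and 50 and 72 genes reached 8-fold. Besides GNG11, KRT20, PTGES, FBP1 and CXCL5, the largest bounds in SNU-5 were of NMUR2, a neuromedin U receptor (72.4-fold), the protocadherin PCDH7 (54.7-fold) and NPRL3, a subunit of the mTORC1 regulator GATOR1 (38.9-fold). In MKN45, besides LDHB, FOXA2, REG4 and RAB25, they were of EPDR1 (81.3-fold), MLPH, which links melanosomes to myosin (73.7-fold), MAL2, an apical transport protein (59.9-fold), and UPK1B, a uroplakin (48.4-fold). AXIN1, a scaffold of the beta-catenin destruction complex, was likewise detected only in SNU-5 (9.37, 8.33 and 8.02 against 4.29, 4.29 and 4.25, at least 13.1-fold). A fold given above for a gene that only 2 arrays of the lower line detected rests partly on a background signal. These genes were CD14, CFB, EREG, LAMB2 and PDGFA, higher in SNU-5, and ALDH1A2, BMP7, FOXA3, PDK3 and PLAU, higher in MKN45. PKP2 was detected on 1 SNU-5 array, and CLDN4 on 1 MKN45 array.

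Promoter windows, from 250 bases before to 50 after the RefSeq start, were found for 252 and 352 of these genes. Those with fewer than 8 CG made up 26.6% of the genes found only in SNU-5 and 23.6% of those found only in MKN45, against 10.8% of all tested genes, 7.50% of genes detected on all 6 arrays and 39.9% of all promoters in the table. No test was run on these shares. The median number of CG was 19.5 and 21.5 against 26.0 for tested genes. The letters TATAAA, on either strand, were in 12.3% of the windows of SNU-5 genes and in 6.50% of those of MKN45, against 6.00% of tested genes and 12.0% of all promoters. The 250 bases before the RefSeq start of the metabolic and keratin genes with opposite patterns are shown, as examples of more and fewer CG (in capitals), 5′ to 3′ on the gene's strand in GRCh38.p14.
LDHB, chr12:21657843-21658092, - strand: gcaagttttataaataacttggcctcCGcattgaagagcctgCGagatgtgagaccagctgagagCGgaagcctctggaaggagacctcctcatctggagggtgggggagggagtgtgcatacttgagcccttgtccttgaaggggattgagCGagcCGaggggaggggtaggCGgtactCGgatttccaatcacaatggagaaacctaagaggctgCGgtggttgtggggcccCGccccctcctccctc
KRT20, chr17:40885243-40885492, - strand: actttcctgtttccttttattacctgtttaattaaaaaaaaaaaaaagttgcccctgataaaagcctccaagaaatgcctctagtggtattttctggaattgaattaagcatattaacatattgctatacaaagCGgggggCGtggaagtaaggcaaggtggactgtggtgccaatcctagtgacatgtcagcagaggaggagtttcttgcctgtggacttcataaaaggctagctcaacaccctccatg
The LDHB stretch held 9 CG, the KRT20 stretch 2, so more and fewer refer to this pair only. The printed stretches leave out the 50 bases after the start, so their counts are not on the scale of the medians above.

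Differences also ran along chromosomes. Over 11334 windows of 15 consecutive tested genes, 1% of window medians lay below -1.16 and 1% above 1.11 on the log2 scale. The highest was on chromosome 7 from CYP51A1 to PEG10, with a median of 2.69 and 13 of 15 genes called higher in SNU-5, GNG11, SGCE, SAMD9 and PEG10 among them. The 2 next, apart from overlapping windows, were the MHC on chromosome 6 from PBX2 to HSD17B8 (2.30, 11 of 15) and the tip of chromosome 16 from POLR3K to DECR2 (2.10, 9 of 15), which holds NPRL3, AXIN1 and the alpha-globin genes HBA1 and HBA2, whose near-identical transcripts the probes may not separate. The lowest were on chromosome 11 from PRSS23 to SNORA32 (-1.93, 9 of 15 higher in MKN45), on X from GPRASP1 to TMSB15B, which holds the BEX and TCEAL families (-1.83, 10 of 15), and on chromosome 15 from C2CD4A to PPIB (-1.49, 10 of 15). By whole chromosome, 27.6% of tested genes on chromosome 22 were higher in SNU-5 and 1.37% in MKN45, on chromosome 7 24.7% and 7.94%, and on chromosome 16 20.1% and 6.10%, while on X 4.71% were higher in SNU-5 and 24.6% in MKN45. Copy number was not measured in these files, and its part in these runs was not tested.

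The difference between the lines was read again on the 6 arrays of crizotinib-treated cells. They shared their normalization and the estimate of spread with the untreated arrays, but did not enter the untreated difference. Of the 1392 genes higher in untreated SNU-5, 96.7% kept their sign there, 988 were called the same way and 6 the opposite way. Of the 1360 higher in untreated MKN45, 96.0% kept their sign, 916 were called the same way and 5 the opposite way. The change in the difference was itself called for 211 and 249 of these genes. HLA-B and VIM, detected on all 6 untreated arrays, stood 7.09 and 5.67 apart on the crizotinib arrays (log2), against 6.30 and 5.64 without drug. MET was not called there either (0.54). The difference was smaller on the crizotinib arrays for several genes of the MAPK list: DUSP5 was 4.70 apart in untreated and 1.87 apart in treated cells, EGR1 1.80 and -0.35, and SPRY4 2.34 and 0.42. EREG went from 2.09 to 0.13, PTGS2 to -1.22 and F3 from -3.62 to -0.86, and the change passed the test for each of these 6. On the crizotinib arrays SPRY4 stood at 4.70, 5.08 and 4.65 in SNU-5 and 4.38, 4.33 and 4.46 in MKN45. EREG stood at 5.13, 4.98 and 4.93 in SNU-5 and 4.95, 4.70 and 5.00 in MKN45. PTGS2 stood at 4.26, 4.39 and 4.41 in SNU-5. The dimmest detected signals on those arrays were 4.85 to 4.93, so the treated differences of SPRY4, EREG and PTGS2 are no measured sizes. Others of the MAPK list lay further apart on the crizotinib arrays, SPRY2 going from -0.07 to -1.25 with the change called and CCND1 from -1.28 to -2.18 with the change not called.

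**Figure D5:**
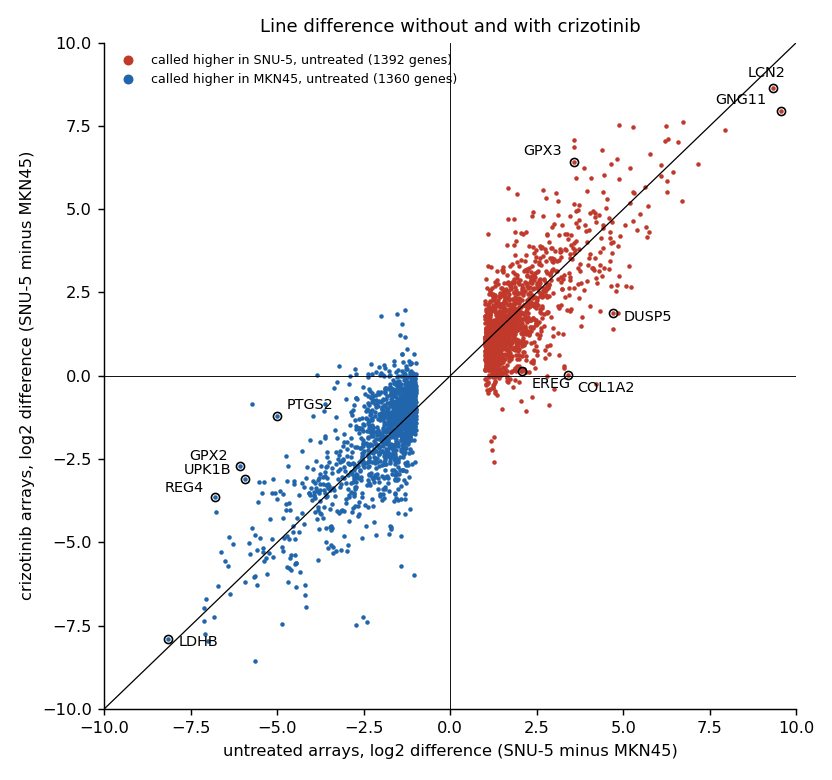
Log2 difference between the lines, SNU-5 minus MKN45, on untreated arrays (x axis) and on crizotinib arrays (y axis) for the 1392 genes called higher in untreated SNU-5 (red) and the 1360 called higher in untreated MKN45 (blue), with the line of equal difference. Most points keep their sign, LDHB and LCN2 lie near the line, and DUSP5, EREG, COL1A2 and PTGS2 lie well away from it toward 0.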

How the data were processed

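The 12 arrays were Illumina HumanHT-12 v4 BeadChips, 3 for each of 4 groups, of which the 6 untreated arrays made up the main comparison. The authors deposited raw signal intensity values per probe, which were not normalized, each with a detection p-value. They also deposited log2 values, which matched a quantile normalization of these intensities and served here as an alternative. The sources used here do not give the settings of the scanner software. Intensities of all 12 arrays were corrected with normexp (offset 16), quantile normalized and put on the log2 scale with neqc in limma 3.58.1 (R 4.3.3). A probe entered the test if 3 or more untreated arrays gave it a detection p below 0.05 (20553 of 47323 did), and the model was a limma fit of all 4 groups, so that the crizotinib arrays shared the estimate of spread. Benjamini-Hochberg adjustment ran over all tested probes. Of all probes 30113 had 1 gene symbol in the platform annotation, 8 several and 17202 none, and only the first kind was named. A gene is given by its probe with the highest mean.

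Genes were named by rule: the 12 largest differences in each direction among genes detected on all 6 arrays, the 8 largest bounds in each direction, members of the gene lists, MET and the ends of the runs of neighbouring genes. The genes and lists were chosen with earlier results of these data known. The number of arrays limits the precision. The procedure was tested on simulated data, and figures were drawn with matplotlib 3.10.9. The alternatives tried were other background corrections and filters, the untreated arrays alone and the replicate number as a block. A random variance t-test named in the methods, adjusted p under 0.05 as the only threshold and leaving out each array were tried as well. The t-test was run on quantile normalized values without background correction.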

Additional observations from a re-analysis of the deposited data

Results flagged for a closer look

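The difference between the lines differed between untreated and crizotinib-treated cells for 58 of the genes named above, by the interaction term of the limma fit at the same thresholds. The values are the untreated log2 difference, SNU-5 minus MKN45, minus the treated one. The sign alone does not say whether the lines lay closer together without drug. F3, higher in MKN45, went from -3.62 untreated to -0.86 treated, and SLC7A5, higher in SNU-5, from 2.69 to 4.79. Both values are negative. The value was negative for PTGS2 (-3.78), AKR1C2 (-3.52), FGFBP1 (-3.51), GPX2 (-3.37), REG4 (-3.15), UPK1B (-2.83), GPX3 (-2.83), CLDN2 (-2.77), F3 (-2.76), AGR3 (-2.68), LUM (-2.65) and CFB (-2.44). Smaller shifts of this sign were measured for CTSE (-2.34), TFF1 (-2.34), P3H2 (-2.18), SLC7A5 (-2.10), CLDN7 (-2.08), UGT1A1 (-2.03), CDK6 (-2.03), SOX9 (-2.01), PLAU (-2.00), AGR2 (-1.91), CRIP1 (-1.91) and BMP4 (-1.80). The remaining genes of this sign were AKR1C3 (-1.75), HK2 (-1.68), HNF4G (-1.56), PLK2 (-1.55), UGT1A6 (-1.55), MUC1 (-1.54), MLPH (-1.33), HSD17B8 (-1.31), CDKN2B (-1.30), IFI27 (-1.28), ATG5 (-1.25), ERBB3 (-1.14) and PRSS23 (-1.02). The value was positive for ATG16L1 (1.64), SPRY4 (1.92), EREG (1.95), KRT7 (2.10), EGR1 (2.15), SOX2 (2.26), LAMB3 (2.36), MT1E (2.58), PDGFA (2.82), DUSP5 (2.83) and COL1A2 (3.39). Lower positive values were those of ESRP1 (1.15), SPRY2 (1.18), ST3GAL5 (1.21), PEG10 (1.21), SNAI2 (1.34), TIGAR (1.43), NPRL3 (1.43), NMUR2 (1.45), CDKN1A (1.60) and GNG11 (1.61). Among the 58 genes SOX9, AKR1C3, CDK6, ERBB3, SPRY2 and CDKN1A were not called between the untreated lines. For several of the 58 the lower line stayed below the dimmest detected signals with and without drug. GNG11, NMUR2, NPRL3 and PEG10 did so in MKN45, and PTGS2, REG4, UPK1B, CTSE, TFF1 and SOX2 in SNU-5, among others. Such values follow the brighter line only and are no measured sizes.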

How the results depend on the processing

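The random variance t-test was run on quantile normalized values without background correction. It called 2617 probes, with 951 genes higher in SNU-5 and 954 in MKN45. These counts do not isolate the choice of test, since the values changed as well. Dropping the fold threshold gave 9007 probes, 3057 genes and 3041 genes. Leaving out 1 array gave 3837 to 4336 probes, 1363 to 1624 genes higher in SNU-5 and 1336 to 1517 higher in MKN45. With the replicate number as a block 4311 probes, 1552 genes and 1493 genes were called, and no named gene lost its call. The numbers share no stated culture or day, and deviations of same-numbered arrays of the lines correlated at 0.025, -0.116 and 0.257, so the numbers were not taken to pair the arrays. The other alternatives kept all 3 counts within 1.5 times. Quantile normalization without background correction, and without that t-test, gave 2875 probes, 1068 genes and 1014 genes. Among the genes recomputed singly, none that was called in the main comparison reversed its direction under any alternative. Genes not called there, MET among them, were not scored for direction. The cause of these changes was not tested. Dim probes limit what is measured, since a signal near 4.9 bounds a difference and does not give its size.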
